A study of Mus musculus with 24 samples.

Results

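The myosin heavy chains of striated muscle were followed across skeletal muscle, brown fat and gonadal white fat of a lean and an obese mouse strain. Members were the 8 genes Myh1, Myh2, Myh3, Myh4, Myh6, Myh7, Myh7b and Myh8, found by gene name among the non-control probes of the scanner files. They had 13 probes of the 55681 on the array, and 11 of the 13 were well above background on at least 4 of the 23 arrays used. Male mice of the NZO/HiBomDife strain (NZO) and of C57BL/6 (B6) were compared. All received a high-fat diet with 45% fat until week 6. The design states week 6 as the length of the diet and the extraction notes as an age, so the age is not settled. The labels give no group on another diet. The tissues were skeletal muscle, titled quad, brown fat (BAT) and gonadal white fat (gWAT), with 4 arrays for each strain and tissue and 24 arrays in all. Muscle array 011 of B6 was left out by the rule that defined the comparison, so that group held 3 arrays. Whether each sample is its own animal is not stated, so a p-value here covers only the spread between these samples, which may be technical.

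A myosin heavy chain is the motor protein of the thick filament: its head splits ATP and pulls on actin, and its rod assembles the filament. Each muscle fibre carries mainly 1 isoform, and the isoform sets how fast the fibre shortens. In adult mouse muscle Myh4 encodes the fastest isoform (IIB), Myh1 the fast IIX isoform, Myh2 the fast oxidative IIA isoform and Myh7 the slow isoform of type I fibres, which is also the beta chain of the heart. Myh3 (embryonic) and Myh8 (perinatal) encode isoforms of developing and regenerating muscle, Myh6 the alpha chain of the heart, and Myh7b a slow-tonic isoform found in extraocular muscle and muscle spindles. In the mouse, interscapular brown fat lies next to skeletal muscle.

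Myh3, Myh2, Myh1, Myh4 and Myh8 lie in this order on chromosome 11, Myh6 and Myh7 lie side by side on chromosome 14, and Myh7b lies on chromosome 2 (mm9 in the files). The probe of Myh4 starts at base 5921 of its transcript, that of Myh7 at 5938 and that of Myh1 at 5943. Of the Myh8 probes shown, one starts at base 5937 and the other at base 477. The probes shown here are those whose readings the results turn on: 2 Myh8 probes that did not read alike, a Myh3 probe and the Myh7b probe. Each is 60 bases long and is written 5′ to 3′ on the transcript strand. Capitals in the Myh8 probe A_51_P143296 and the Myh3 probe mark the bases that were equal when both were laid over each other without gaps, 29 of the 48 aligned bases or 60.4%. No base is marked in the other sequences.
Myh8 A_51_P143296 (chr11:67121925-67121984): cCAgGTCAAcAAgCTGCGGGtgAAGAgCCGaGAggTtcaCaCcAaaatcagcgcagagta
Myh8 A_55_P2120161 (chr11:67093475-67093534): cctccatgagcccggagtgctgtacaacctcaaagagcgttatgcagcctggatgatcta
Myh3 A_55_P2083406 (chr11:66915107-66915166): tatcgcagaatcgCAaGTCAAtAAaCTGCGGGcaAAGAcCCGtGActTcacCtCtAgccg
Myh7b A_55_P2057321 (chr2:155459122-155459181): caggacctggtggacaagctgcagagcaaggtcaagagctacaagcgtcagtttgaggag

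Myh1, Myh2, Myh4 and Myh8 were all lower in NZO brown fat, so the 250 bases before their RefSeq start sites are shown (build GRCm38.p6, all on the + strand). Capitals mark words of 8 bases that all 4 windows held. They covered 23 bases in each window.
Myh4 (chr11:67237562-67237811): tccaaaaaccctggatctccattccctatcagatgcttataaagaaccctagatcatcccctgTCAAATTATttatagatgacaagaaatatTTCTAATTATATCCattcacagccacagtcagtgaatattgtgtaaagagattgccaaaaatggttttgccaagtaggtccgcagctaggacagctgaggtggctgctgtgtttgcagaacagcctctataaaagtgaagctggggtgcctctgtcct
Myh1 (chr11:67199852-67200101): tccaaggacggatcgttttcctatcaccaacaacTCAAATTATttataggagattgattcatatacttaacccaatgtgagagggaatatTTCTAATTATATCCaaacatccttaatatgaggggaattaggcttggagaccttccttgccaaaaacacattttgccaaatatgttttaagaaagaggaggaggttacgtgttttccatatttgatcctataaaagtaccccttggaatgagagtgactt
Myh2 (chr11:67170777-67171026): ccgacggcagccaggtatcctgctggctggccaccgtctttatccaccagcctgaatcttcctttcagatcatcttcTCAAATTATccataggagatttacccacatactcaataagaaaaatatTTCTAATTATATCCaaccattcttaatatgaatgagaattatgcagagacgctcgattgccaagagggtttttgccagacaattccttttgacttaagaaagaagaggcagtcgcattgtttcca
Myh8 (chr11:67276874-67277123): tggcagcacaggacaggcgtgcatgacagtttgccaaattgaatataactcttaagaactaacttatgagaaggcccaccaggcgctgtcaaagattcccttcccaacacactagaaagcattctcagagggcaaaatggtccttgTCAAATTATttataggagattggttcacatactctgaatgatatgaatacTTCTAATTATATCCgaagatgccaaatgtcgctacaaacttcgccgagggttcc

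The longest run held by all 4 windows was the 14-base run TTCTAATTATATCC. It began 158 bases before the start site in Myh4, 160 in Myh1, 125 in Myh2 and 54 in Myh8. Of 32851 RefSeq windows of the same length, searched on both strands, 4 held it (0.0122%), and these were the windows of Myh1, Myh2, Myh4 and Myh8. The windows of Myh3, Myh6, Myh7 and Myh7b did not. On either strand, TATAAA was in 4 of the 9 member windows (Myh7 has 2 starts) and in 12.4% of all windows. In the Myh8 window it was on the opposite strand only, so the sequence as printed does not hold it. The E-box CANNTG, which myogenic factors such as MyoD can bind, was in 7 of 9 and in 66.2% of all. The MCAT element CATTCC was in 4 of 9 and in 12.6%. The MEF2 motif was searched only in the strict form of CTA, 4 bases of A or T, and TAG. That form was in none of the 9 and in 0.508%. Looser forms of the MEF2 motif were not searched, so their absence from these windows is not shown. These 4 genes were chosen with their values known, and a match of letters in a short window says nothing of binding.

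Levels are given as the log2 intensity minus the array's own 75th percentile over all non-control spots, so 0 is the 75th percentile and 1 unit is a doubling. A probe's level is compared with that of the same probe on other arrays. Gene lists are summed or averaged over their probes on an array, and some levels are set against such an average. Probes are called bright or dim by their signal alone. Single members are not ranked against each other as amounts of RNA. Between 51.9% and 59.3% of probes were well above background on an array. All 13 genes of a list of muscle genes expressed in every fibre type (such as Acta1, Ckm and Ttn) were well above background on every quad array, and brown fat markers (such as Ucp1) summed to 2158 to 2908 on the BAT arrays against 3.25 to 74.0 elsewhere. These sums are of intensities relative to the 75th percentile. The 74.0 was that of B6 muscle array 010, which was kept, and the omitted B6 muscle array 011 had 61.7. The other kept B6 muscle arrays had 28.8 and 10.3, and the NZO muscle arrays 8.68 to 27.1. The part of brown fat RNA in the muscle comparisons was not tested. The omitted B6 muscle array 011 had a summed adipocyte marker level of 1285, where the other B6 muscle arrays had 209 to 263, and a muscle list sum of 3557 against 5443 to 5911. In bulk tissue, fewer muscle cells and less myosin RNA per muscle cell cannot be told apart.

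**Figure D1:**
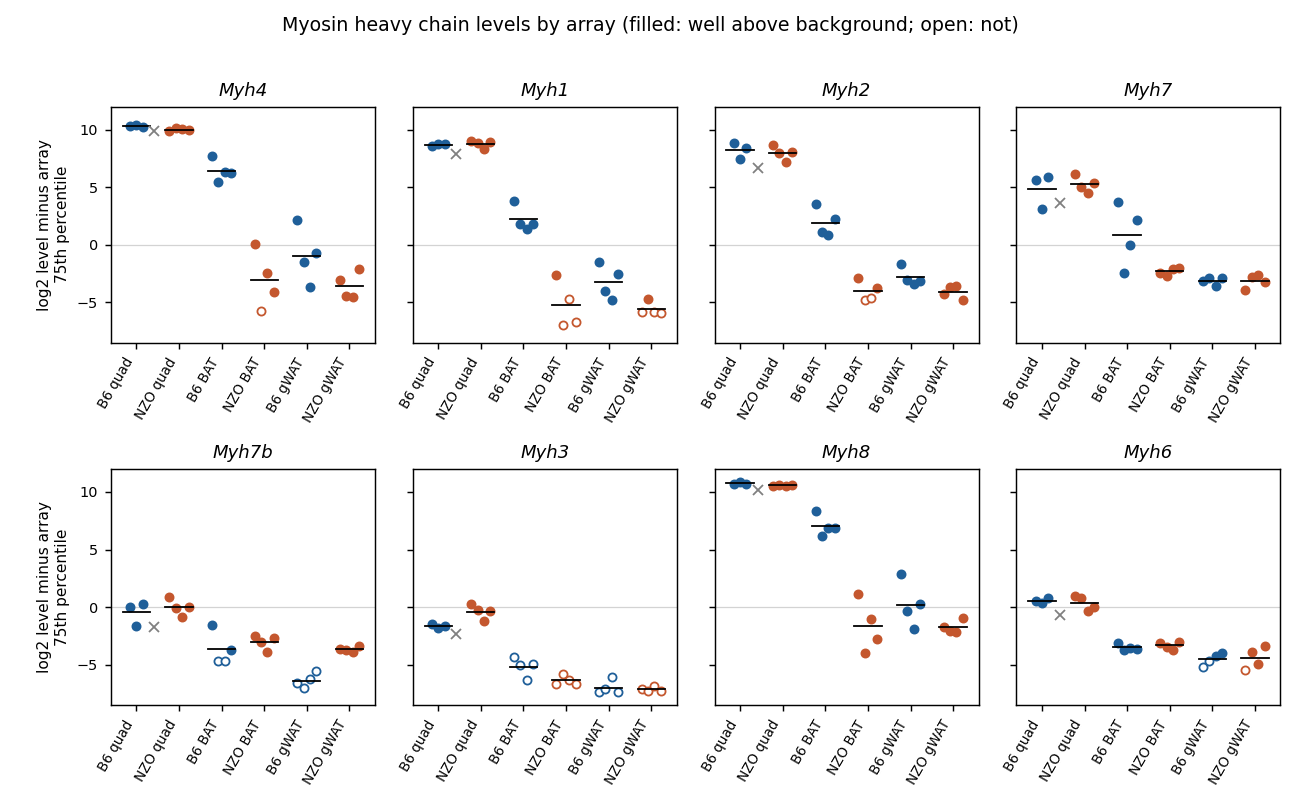
Log2 level minus the array's 75th percentile for 1 probe of each of the 8 genes, the one with the highest mean over the 23 arrays, by strain and tissue. Points are arrays (blue B6, orange NZO, filled where the probe was well above background), bars are group means over 4 arrays (3 for B6 quad), and the grey cross is the omitted B6 muscle array 011. Myh4, Myh1, Myh2 and Myh8 separate B6 BAT from NZO BAT, and all 8 genes are highest in quad.

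The member genes were higher in skeletal muscle than in both fats in both strains, as the tissue labels require. The exception among the probes tested was the Myh8 probe A_55_P2120169, which read 1.16 higher in quad than in BAT of B6 (adjusted p = 0.236). Of 11 member probes tested between quad and BAT in B6, 10 were higher in quad at an adjusted p under 0.05, where 28.2% of all probes tested were higher. In NZO 10 of 10 were higher (27.0% of all). Against gWAT, 11 of 11 were higher in B6 (34.8% of all) and 10 of 10 in NZO (36.9% of all). In the comparison with BAT in B6, both Myh3 probes, Myh7b and A_55_P2120169 passed the filter through the muscle arrays alone. In NZO this held for Myh1, Myh2, Myh4, both Myh3 probes and the Myh8 probe A_55_P2120161 against BAT, and for Myh1, Myh6, both Myh3 probes and A_55_P2120161 against gWAT. Against gWAT in B6 it held for both Myh3 probes, Myh6, Myh7b, A_55_P2120161 and A_55_P2120169. A probe that enters only where it is high favours a difference, so none of these 4 counts is support for one. The B6 BAT arrays overlapped those of quad for Myh7, Myh7b and A_55_P2120169.

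The fast isoforms are given first. Myh4 read 10.32, 10.38 and 10.24 in B6 quad and 9.84, 10.10, 10.04 and 9.95 in NZO quad. In B6 BAT it read 7.71, 5.49, 6.35 and 6.22, and in B6 gWAT 2.17, -1.49, -3.67 and -0.74. Muscle arrays lay within a narrow band, BAT arrays of B6 came next without touching it, and gWAT arrays of B6 spread widely.

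Quad exceeded BAT in B6 by 3.87 for Myh4 (SE 1.14, 14.7-fold, adjusted p = 0.00581). For Myh1 the difference was 6.50 (SE 0.86, adjusted p = 1.6e-06) and for Myh2 it was 6.31 (SE 0.60, adjusted p = 1.7e-08). The median difference of the 13 muscle genes in the same comparison was 6.61, that of 12 fast fibre genes was 6.30, and that of all probes tested was -0.12. The values of Myh1 and Myh2 lay near those medians and that of Myh4 below them, a difference that was not tested.

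The level of each chain was also set against the array's mean log2 level of the 13 muscle genes. The Myh4 level minus that mean was 5.50, 5.58, 5.74 and 5.51 in B6 BAT and 2.95, 3.02 and 2.97 in B6 quad. The Myh1 level minus that mean was 1.63, 1.91, 0.72 and 1.12 in B6 BAT and 1.21, 1.38 and 1.52 in quad. Myh2 lay between 0.23 and 1.53 in B6 BAT and between 0.13 and 1.47 in quad. Relative to other muscle genes Myh4 was higher in B6 BAT than in quad without overlap, while Myh1 and Myh2 overlapped. No muscle array had a Myh4 spot that the scanner marked as saturated, and whether high signals are compressed was not tested.

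**Figure D2:**
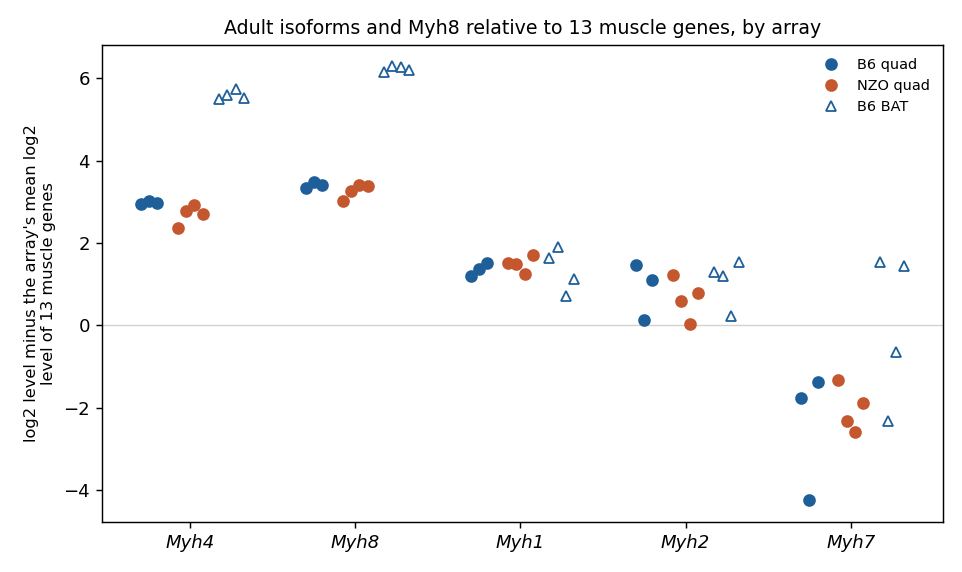
Log2 level minus the array's mean log2 level of 13 muscle genes (vertical axis) for 5 genes, with circles for quad and triangles for B6 BAT, 1 point an array. Myh4 and Myh8 (probe A_51_P143296) sit above their quad values in B6 BAT, from 5.50 to 5.74 against 2.95 to 3.02 for Myh4, Myh1 and Myh2 overlap with quad, and Myh7 is spread.

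The slow chain Myh7 was highest in quad and spread widely in B6 BAT. It read 5.61, 3.12 and 5.91 in B6 quad and 6.15, 5.03, 4.52 and 5.36 in NZO quad. In B6 BAT it read 3.75, -2.41, -0.027 and 2.16 on arrays 010, 011, 015 and 009. The BAT arrays of B6 differed by over 6 units among themselves, and the highest lay inside the range of quad. Quad exceeded BAT by 4.02 in B6 (SE 0.95, adjusted p = 0.00102) and by 7.57 in NZO (SE 0.88, adjusted p = 2.6e-07).

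In B6 all 7 member probes tested were higher in BAT than in gWAT (33.9% of all probes tested were higher), with differences of 7.37 for Myh4 (SE 1.05, adjusted p = 6.0e-06), 5.42 for Myh1 (SE 0.80), 4.72 for Myh2 (SE 0.56) and 3.98 for Myh7 (SE 0.88). Myh6 and Myh8 A_55_P2120161 passed the filter there through BAT alone, so the count of 7 is no support of its own. In NZO 1 of 6 was higher, Myh6 by 1.10 (SE 0.38, adjusted p = 0.0155), where 41.0% of all were higher, and it too passed the filter through BAT alone. Myh4 differed by 0.48 between the fats of NZO (SE 1.05, adjusted p = 0.699) and Myh2 by 0.054 (SE 0.56, adjusted p = 0.935). The Myh6 call in NZO was lost without NZO gWAT array 009 and without array 003.

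By group mean, Myh4, Myh1 and Myh2 were each highest in quad of both strains, then in B6 BAT and then in B6 gWAT, and low in both NZO fats, whose arrays overlapped. In Myh7 the order was NZO quad, B6 quad, B6 BAT, NZO BAT, B6 gWAT and NZO gWAT. Neighbours in that order overlapped, except that all NZO BAT arrays lay above all B6 gWAT arrays. Quad groups of the strains overlapped for Myh1, Myh2 and Myh7 and did not for Myh4.

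NZO brown fat had far lower fast myosin than B6 brown fat. Myh4, Myh1, Myh2 and both bright Myh8 probes were lower in NZO, 5 of the 8 member probes tested, where 15.7% of all 29034 probes tested changed and 8.32% were lower. The 5 did not overlap between the strains (22.3% of all probes tested did not overlap). Myh1, Myh2, Myh4 and Myh8 A_55_P2120161 passed the filter only because B6 was high, so their share has no weight of its own. Myh7, Myh7b and Myh6 did not pass the test, and Myh3 was not well above background on any BAT array.

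Myh4 read 0.038, -5.71, -2.48 and -4.08 in NZO BAT, on arrays 009, 011, 003 and 007, and the array at -5.71 was not well above background. The mean was -3.06 ± 2.45 (SD, n = 4) against 6.44 ± 0.93 (SD, n = 4) in B6. Every NZO array lay more than 5 units under the lowest B6 array. The difference was -9.50 (SE 1.13, 724-fold, adjusted p = 0.000850).

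Myh1 read 3.84, 1.81, 1.33 and 1.83 in B6 BAT and -2.58, -6.98, -4.73 and -6.68 in NZO BAT. In NZO 1 of 4 arrays was well above background, array 009, so most of that group gave readings at the background and the size of the difference rests on them. The difference of the readings was -7.45 (SE 1.00, adjusted p = 0.00160). Myh2 read 3.51, 1.11, 0.84 and 2.24 in B6 and -2.84, -4.80, -4.63 and -3.78 in NZO, where 2 of 4 arrays were well above background, and the difference was -5.94 (SE 0.65, adjusted p = 0.000576). For these 3 genes array 009 was the highest of the NZO brown fats. The differences were smaller with normexp background correction, at -7.25 for Myh4, -3.70 for Myh1 and -3.29 for Myh2, and in the deposited table, at -7.92, -4.59 and -4.03, and all 3 passed in both.

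Myh7 read -2.44, -2.68, -2.09 and -2.02 in NZO BAT, all well above background. The difference from B6 was -3.17 (SE 1.16, adjusted p = 0.110), and B6 array 011 at -2.41 lay among the NZO values. Without that array the difference was -4.27 with an adjusted p of 0.0142, so 1 array decides the call, and it also passed with 1 spread estimated over all arrays (adjusted p = 0.0147). Myh7b, the slow-tonic chain, read -1.58, -4.65, -4.71 and -3.68 in B6 and -2.53, -3.03, -3.85 and -2.64 in NZO (difference 0.64, SE 0.68, adjusted p = 0.595). Myh6 read from -3.74 to -3.10 in B6 and from -3.69 to -3.04 in NZO (difference 0.17, SE 0.19, adjusted p = 0.622). The heart chain and the slow-tonic chain overlapped between the strains in brown fat.

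Genes that are not myosin heavy chains moved in the same way in BAT. Of the 13 muscle genes of all fibre types 12 were tested and 12 were lower in NZO (8.32% of all probes tested). Their median difference was -6.18 against -0.0056 over all probes tested. Ckm, the muscle creatine kinase, differed by -8.71 (SE 0.85, adjusted p = 0.000288), Ttn, the giant elastic protein titin, by -8.05 (SE 0.55) and Acta1, the skeletal actin, by -7.06 (SE 0.73). The fast fibre genes were lower in 12 of 12, with a median of -6.32. Among them were Actn3 at -8.64, an alpha-actinin of fast fibres, and the fast troponins Tnnt3 at -7.77 and Tnni2 at -7.51. On NZO BAT arrays 5 to 8 of 13 muscle genes and 8 to 10 of 12 fast fibre genes were well above background. A tested gene not well above background on every NZO array passed the filter through B6 alone. These counts therefore have no weight of their own, and the sizes rest in part on readings at the background.

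Slow fibre genes were lower in 5 of 8 tested (median -2.36), led by Csrp3 at -5.06, Myl2, the light chain that pairs with slow myosin, at -4.74, and Mybpc1 at -3.75. Thick filament partners and myosin chaperones were lower in 13 of 14 (median -3.13), among them the M-band protein Myom2 at -7.99 and the fast myosin-binding protein Mybpc2 at -6.43. Of 13 tested regulators of fibre type 3 were lower, Vgll2 by -3.43, Myf6 by -1.71 and Tbx15 by -0.85. Of 5 tested genes of developing or denervated muscle 1 was lower, Actc1 at -4.56, the cardiac actin that developing muscle also makes. Neither of 2 tested cardiac genes passed. Of all probes tested in BAT 8.32% were lower. Some thick filament partners, such as Mybpc1, Mybpc2 and Myl2, are also in the fast or slow fibre list, so these counts are not separate. The limit named for the fast fibre genes holds for the slow fibre and thick filament counts too. On NZO BAT arrays 5 to 7 of 10 slow fibre genes and 8 to 11 of 14 partners were well above background.

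As a level of muscle RNA, the 13 muscle genes summed to between 51.6 and 218 on the B6 BAT arrays and to between 1.32 and 3.56 on the NZO BAT arrays, against 4262 to 5911 in quad. On NZO BAT arrays 5 to 8 of the 13 were well above background, and on B6 BAT arrays 12 or 13. The satellite cell and myoblast list was low in both, at 0.179 to 0.564 in B6 and 0.258 to 0.500 in NZO. The adipocyte list summed to 2283 to 2530 in B6 and 2064 to 2472 in NZO, and 3 of its 8 genes passed: Lep was 2.22 and Cidec 0.56 higher in NZO, and Retn, the hormone resistin, differed by -1.56. The brown adipocyte list summed to 2320 to 2908 in B6 and 2158 to 2369 in NZO, and 2 of its 6 genes were lower, the fatty acid elongase Elovl3 at -4.98 and the potassium channel Kcnk3 at -0.46. Of 4 smooth muscle genes tested 3 were lower, Cnn1 at -0.88, Acta2 at -0.58 and Tagln at -0.47, and that list summed to 21.7 to 29.7 in B6 and 15.8 to 20.0 in NZO. Of all probes tested in BAT 15.7% changed and 8.32% were lower. The part of muscle RNA and of these other cells in the myosin result was not tested beyond these values. Relative to the muscle list, 6 of 8 member probes differed in BAT, but 99.7% of all probes did, because the list itself moved, so nothing can be read from that count.

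**Figure D3:**
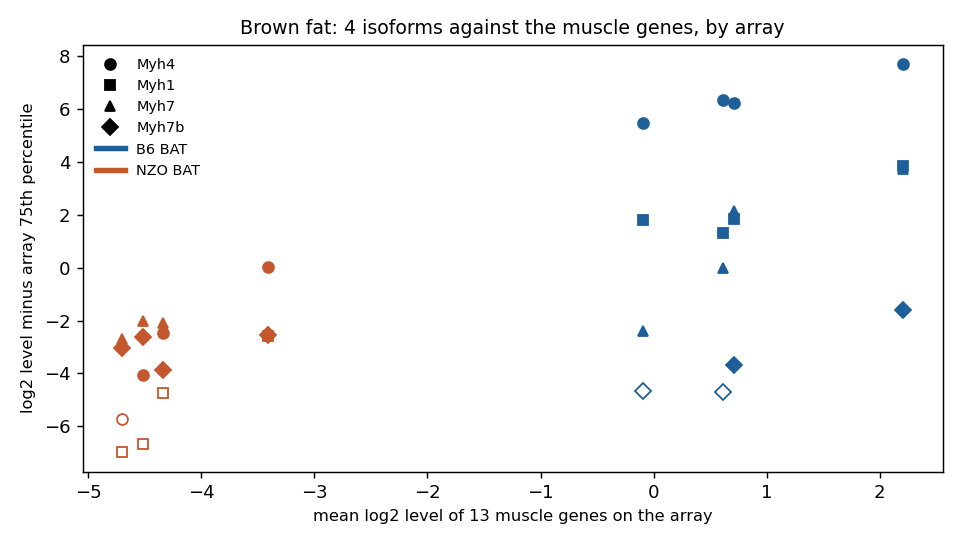
Brown fat arrays: log2 level of Myh4, Myh1, Myh7 and Myh7b (vertical axis) against the array's mean log2 level of 13 muscle genes (horizontal axis), blue for B6 and orange for NZO, open where the probe was not well above background. B6 array 010 at the right has the highest reading of each of the 4 genes, with Myh4 at 7.71, and the NZO arrays lie at the left, where array 009 has the highest Myh4 and Myh1.

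Slide 3 held 1 BAT array of each strain. On it Myh4 differed by -10.4, Myh1 by -8.01, Myh2 by -4.62 and Myh8 A_51_P143296 by -9.64. These values of 1 array against 1 have no replicate. With the replicate number as a block, Myh4 (-8.69, adjusted p = 0.0745), Myh1 (-6.60, adjusted p = 0.0949) and Myh8 A_51_P143296 (-7.94, adjusted p = 0.0688) no longer passed, and Myh2 and Myh8 A_55_P2120161 still passed. In BAT the strains share only numbers 009 and 011, so that fit rests on the arrays of those numbers. An NZO and a B6 array of the same number cannot come from 1 animal. The lost calls are therefore not the outcome of pairing animals.

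In muscle no chain passed the test between the strains, and the widest difference was that of Myh3. None of 11 member probes tested passed at an adjusted p under 0.05 in limma, where 4.66% of all 28953 probes were higher in NZO and 6.36% lower, and 3 of the 11 had an unadjusted p under 0.05. In addition 5 of the 11 did not overlap between the strains against 27.4% of all. The 2 Myh3 probes were among these 5. The same fit called 3190 probes in all.

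Myh3, the embryonic chain, read -1.45, -1.80 and -1.62 in B6 quad and 0.26, -0.28, -1.21 and -0.36 in NZO quad with probe A_55_P2083406. Every NZO value lay above every B6 value. The difference was 1.23 (SE 0.32, 2.34-fold, adjusted p = 0.0537). The other Myh3 probe read -1.25, -1.47 and -1.48 in B6 and 0.67, 0.0025, -1.11 and -0.17 in NZO, a difference of 1.25 (SE 0.38, adjusted p = 0.0820). Both probes thus gave the same size, and neither passed.

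The Myh3 result lay next to the threshold. Without NZO array 003, the lowest of that group, the differences were 1.50 (adjusted p = 0.00991) and 1.57 (adjusted p = 0.0149). In a fit over all 23 arrays, which shares the spread over the tissues, they were 1.23 (adjusted p = 0.0400) and 1.25 (adjusted p = 0.00177). That fit with the slide added as a fixed block gave 1.42 (adjusted p = 0.0192) and 1.27 (adjusted p = 0.0163), and on slide 4, which held 1 quad array of each strain, they were 1.26 and 1.31. Relative to the 13 muscle genes both passed, at 1.27 (SE 0.26, adjusted p = 0.0248) and 1.30 (SE 0.31, adjusted p = 0.0445), where 7.92% of all probes did. That call of both probes was lost when any of NZO arrays 011 and 007 or B6 arrays 010, 015 and 009 was left out, and that of the second probe without NZO array 009.

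Of 9 other genes of developing or denervated muscle none passed (median 0.39 against -0.044 over all probes), and their summed level was 432 to 700 in NZO and 849 to 1525 in B6. The satellite cell and myoblast list summed to 15.4 to 19.3 in NZO and 15.4 to 18.2 in B6. Of 8 adipocyte genes tested in muscle 2 were higher in NZO and 6 did not pass, where 4.66% of all probes were higher. Lep, the adipocyte hormone leptin, was 1.90 higher in NZO (SE 0.43, adjusted p = 0.0340) and Cidec, a lipid droplet protein, 1.35 higher (SE 0.34, adjusted p = 0.0489). The summed adipocyte level was 153 to 300 in NZO and 209 to 263 in B6. The part of fat RNA in the Myh3 result was not tested.

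Among the adult chains, Myh4 was 0.33 lower in NZO quad (-0.33, SE 0.11, adjusted p = 0.0945), with all 4 NZO arrays below all 3 B6 arrays. On slide 4, with 1 array of each strain, its difference was -0.30. In the fit over all 23 arrays it was -0.33 (SE 1.14), and with the slide added as a fixed block 0.00051 (SE 1.35). Myh1 differed by 0.076 (SE 0.17, adjusted p = 0.818), from 8.58 to 8.79 in B6 and from 8.35 to 8.99 in NZO. Myh2 differed by -0.29 (SE 0.43, adjusted p = 0.714), with 8.85, 7.48 and 8.39 in B6 and 8.70, 7.94, 7.15 and 8.02 in NZO. Myh7 differed by 0.38 (SE 0.71, adjusted p = 0.773), and without B6 array 015 by -0.50.

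Array 015 of B6 quad had the lowest Myh7, Myh2 and Myh7b of its group, at 3.12, 7.48 and -1.64. Myh7b read -0.029, -1.64 and 0.28 in B6 and 0.86, -0.080, -0.89 and 0.046 in NZO, a difference of 0.45 (SE 0.55, adjusted p = 0.654) that became -0.14 without array 015. Myh6 differed by -0.20 (SE 0.34, adjusted p = 0.751). For all of these the strains overlapped in muscle.

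Of 12 fast fibre genes 1 was higher in NZO quad, the calcium store protein Casq1 by 0.72 (SE 0.11, adjusted p = 0.00832), and of 10 slow fibre genes none passed (median 0.38). Of 14 thick filament partners and chaperones 2 were lower, the myosin chaperone Unc45b by -0.69 (SE 0.14, adjusted p = 0.0244) and the M-band protein Myom1 by -0.58 (SE 0.14, adjusted p = 0.0453). Of 15 regulators 2 were lower, Tbx15 by -0.70 (SE 0.12, adjusted p = 0.0118) and Prdm16 by -1.36 (SE 0.34, adjusted p = 0.0478). Of the 13 muscle genes of all fibre types Klhl41 was higher by 1.29 and Cacna1s lower by -0.57. None of 2 tested cardiac genes passed. Of all probes tested in quad 4.66% were higher and 6.36% lower.

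**Figure D4:**
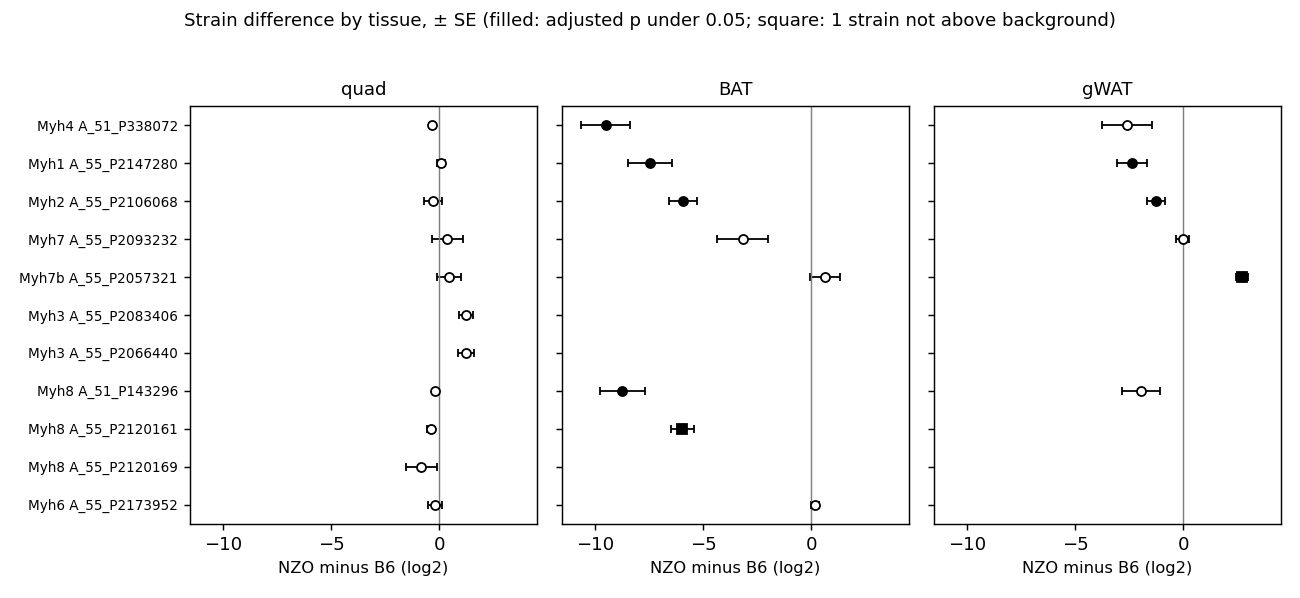
NZO minus B6 (log2, horizontal axis) with its standard error for each member probe tested, in quad (4 NZO and 3 B6 arrays), BAT and gWAT (4 and 4). Filled symbols passed an adjusted p under 0.05, and squares mark a probe that was well above background in only 1 strain. Quad values lie between -0.82 for Myh8 A_55_P2120169 and 1.25 for a Myh3 probe, and BAT values reach -9.50 for Myh4.

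In white fat the members moved in both directions. Of 6 member probes tested Myh1 and Myh2 were lower in NZO and Myh7b was higher, 3 in all, where 32.4% of all 30599 probes changed (17.4% lower and 14.9% higher). A count of 3 of 6 is near that background. Of the 6 probes 2 did not overlap, Myh2 and Myh7b, against 36.6% of all. Myh7b passed the filter only because NZO was high and Myh1 only because B6 was high. These counts therefore have no weight of their own.

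Myh7b read -3.63, -3.68, -3.87 and -3.38 in NZO gWAT, well above background on all 4 arrays. In B6 gWAT it read -6.61, -7.03, -6.24 and -5.58, on none of them well above background. The NZO arrays lay close together and clear of B6. NZO was at least 2.67-fold higher (adjusted p = 0.000295), a bound that sets the NZO mean against the higher of the B6 reading and the lowest signal that passed as well above background. The measured means differed by 2.73 (SE 0.29). With normexp background correction the difference was 0.51 (SE 0.12) and from the deposited table it was 0.80 (SE 0.13), both smaller than that bound.

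On slides 4 and 6 the Myh7b difference was 2.20 and 2.49. It passed under all 17 alternatives run, with adjusted p from 9.9e-05 to 0.00821. The probe entered the test through NZO alone, where it was high, so these passes are no separate support. The brown adipocyte list summed to 39.4 to 59.9 in NZO gWAT and 3.25 to 6.33 in B6 gWAT. Of its 6 genes tested 4 were higher in NZO and 1 was lower, with Ucp1, the uncoupling protein of brown fat, 7.79 higher (SE 0.28). The macrophage list summed to 115 to 129 in NZO and 58.7 to 75.6 in B6, and 4 of 4 genes tested were higher. Of all probes tested 14.9% were higher and 17.4% lower. The part of these cells in the Myh7b result was not tested. Whether the probe matches the NZO genome as well as the B6 genome was not tested.

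Myh1 read -1.45, -4.04, -4.83 and -2.55 in B6 gWAT and -5.84, -4.72, -5.79 and -5.94 in NZO gWAT, where 1 of 4 arrays was well above background. The strains overlapped, and the difference was -2.35 (SE 0.69, adjusted p = 0.0330). Myh2 read -1.64, -3.03, -3.37 and -3.12 in B6 and -4.26, -3.64, -3.61 and -4.75 in NZO, a difference of -1.28 (SE 0.42, adjusted p = 0.0469). Both calls were marginal: that of Myh1 was lost in 10 of 17 alternatives and that of Myh2 in 14 of 17, with adjusted p up to 0.169 and 0.482. Leaving out NZO arrays 009 or 007 or B6 arrays 010 or 009 ended both, NZO array 003 that of Myh1, and NZO array 012 or B6 array 011 that of Myh2.

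Myh4 (-2.60, SE 1.15, adjusted p = 0.117) and Myh8 A_51_P143296 (-1.94, SE 0.89, adjusted p = 0.129) did not pass in gWAT. Without B6 array 015, which had the lowest Myh4 of its group at -3.67, they passed at -3.51 and -2.66. Myh7 differed by -0.022 (SE 0.31, adjusted p = 0.962). The muscle list summed to 2.32 to 7.31 in B6 gWAT and 5.63 to 10.6 in NZO gWAT, so muscle RNA was low in both. Of its 6 genes tested 1 was higher in NZO, Acta1 by 1.40 (SE 0.40), with overlap between the strains. By mean log2 level of the list, B6 array 010 was highest at -3.01, with 11 genes well above background. The other B6 arrays lay down to -4.63, and the NZO arrays at -4.51 to -4.03. Among the fast fibre genes 5 of 11 tested were lower (Pgam2 by -2.20 and Actn3 by -1.98 among them) and Casq1 was 2.34 higher. Among the slow fibre genes Tnnt1 was 2.14 and Mybpc1 0.75 higher and Casq2 -1.69 lower. Of all probes tested in gWAT 17.4% were lower and 14.9% higher.

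Myh8 needs a reading of its own, since its 4 probes did not give 1 pattern. Probe A_51_P143296 was well above background on all 23 arrays, A_55_P2120161 on 12, A_55_P2120169 on 12 and A_51_P239800 on none. The first read 8.36, 6.19, 6.87 and 6.91 in B6 BAT and 1.16, -3.94, -1.03 and -2.77 in NZO BAT. The second read 1.14, -1.61, -0.63 and -0.48 in B6 BAT and was not well above background on any NZO BAT array.

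Both of these were lower in NZO BAT: the first by -8.73 (SE 1.03, 423-fold, adjusted p = 0.000844), the second at least 16.5-fold (adjusted p = 0.000173, measured means -6.36 and -0.40). With normexp background correction the second differed by -1.70 (SE 0.33, adjusted p = 0.00655), less than that bound, and the first by -7.28. They parted in the contrast of muscle and brown fat in B6. Quad exceeded BAT by 3.66 with the first (SE 0.96, adjusted p = 0.00255), where Myh4 had 3.87, and by 7.20 with the second (SE 0.56, adjusted p = 9.0e-10), where the muscle genes had a median of 6.61. The first probe ran with Myh4 across the 23 arrays (r = 0.999). Myh8 levels are therefore uncertain here: the chains on chromosome 11 are close copies, and whether the first probe also takes up RNA of Myh4 or another chain was not tested.

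In quad neither of the 2 bright Myh8 probes passed between the strains (-0.19, SE 0.10, adjusted p = 0.269 and -0.38, SE 0.17, adjusted p = 0.191), though the arrays did not overlap. The dim probe A_55_P2120169 differed by -0.82 (SE 0.71, adjusted p = 0.507). No Myh8 probe showed the higher NZO level that both Myh3 probes had.

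**Figure D5:**
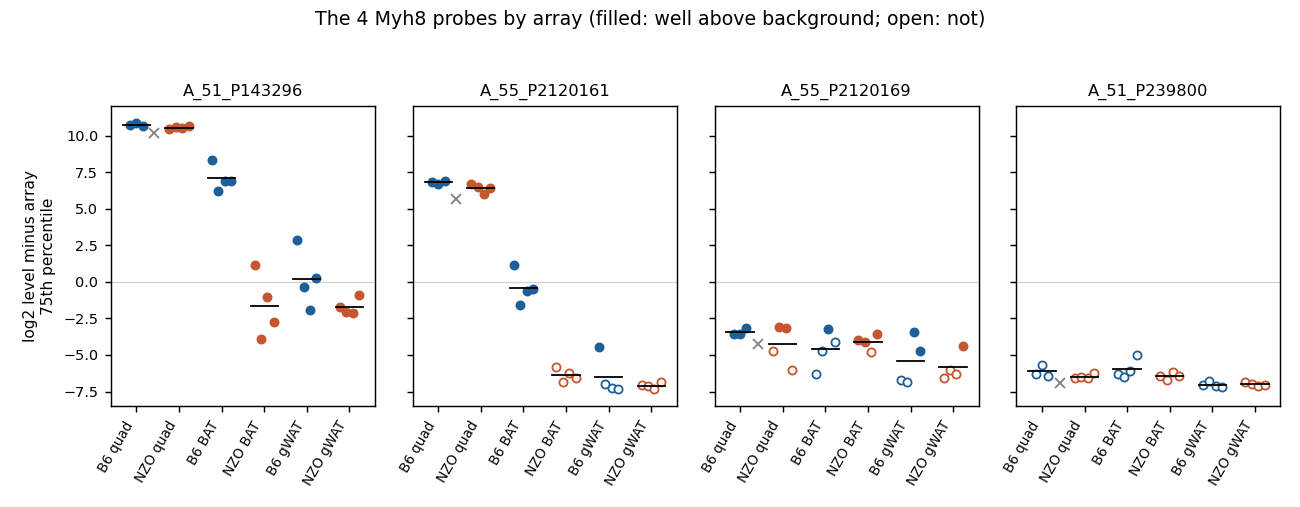
Log2 level minus the array's 75th percentile for the 4 Myh8 probes, by strain and tissue, with symbols as in the plot of levels by array. The 2 brighter probes fall from quad to B6 BAT by 3.66 and 7.20, and A_51_P239800 is not well above background on any array.

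The strain difference itself was compared between tissues. In BAT against quad, 7 of 11 member probes tested differed, where 5.61% of all probes did. Myh4 gave -9.16 (SE 1.55, adjusted p = 0.00109), Myh1 -7.52 (SE 1.17, adjusted p = 0.000503), Myh2 -5.65 (SE 0.82, adjusted p = 0.000243) and Myh8 A_51_P143296 -8.54 (SE 1.31, adjusted p = 0.000440). Myh7 (-3.56, SE 1.29, adjusted p = 0.122), Myh7b (0.19, SE 0.84) and Myh6 (0.37, SE 0.56) did not pass. For the fast chains the strain difference was thus wider in BAT than in quad.

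Both Myh3 probes also passed there, at -2.42 (SE 0.54, adjusted p = 0.0106) and -1.38 (SE 0.35, adjusted p = 0.0241), but Myh3 was not well above background on any BAT array. That value therefore rests on the quad difference and on BAT readings with no measured level.

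In BAT against gWAT 5 of 8 passed (19.0% of all), the same 3 adult fast chains and 2 Myh8 probes, from -6.90 for Myh4 (SE 1.49, adjusted p = 0.00324) to -4.66 for Myh2 (SE 0.79, adjusted p = 0.000425). Myh8 A_55_P2120161 passed the filter there through B6 BAT alone, and Myh1 through the B6 fats alone. The count of 5 is therefore no support of its own. Myh7b gave -2.09 (SE 0.81, adjusted p = 0.0780). In quad against gWAT 1 of 11 passed (19.7% of all), the Myh3 probe A_55_P2066440 at 1.21 (SE 0.35, adjusted p = 0.0209), again with no gWAT array well above background, and the other Myh3 probe gave 1.38 (SE 0.54, adjusted p = 0.0790).

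The probes whose pattern over the 23 arrays was most like that of each chain were named by the highest Pearson r, as a description with no test. The arrays share the tissue contrast, so all such values are high. Myh1 was most like Tnnt3 (r = 0.994), the fast troponin T, then Mybpc2 and Tcap. Myh2 was most like Klhl31 (r = 0.994), Neb and Mybpc2, and Myh4 after Myh8 was most like Tnnc2 (r = 0.990), the fast troponin C, and Tnnt3.

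The slow chains had other neighbours. Myh7 was most like its own light chain Myl2 (r = 0.990), then the slow troponins Tnni1 (r = 0.985) and Tnnc1 (r = 0.978). Myh7b was most like Tnnt1 (r = 0.963), the slow troponin T, and then Lrrfip2 (r = 0.937), and its values were the lowest of the standing probes. Myh6 was most like Klhdc3 (r = 0.980) and Art5 (r = 0.976). The 2 Myh3 probes named different genes, Mpi (r = 0.983) and Nrap for A_55_P2083406, and Ankrd1 (r = 0.995), Cntnap2 and Myog, the myogenic factor myogenin, for A_55_P2066440. The second Myh8 probe was most like Apobec2 (r = 0.999), Klhl40 and Prr33.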

How the data were processed

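Total RNA of each sample was labelled with Cy3 and hybridised to a one-colour Agilent array. The deposited scanner files hold intensities per spot; per the file headers they were made with Feature Extraction 11.0.1.1 on mm9 annotation, and the processed signal is background-subtracted and not scaled between arrays. The submitters' processing notes name version 9.1. In the deposited value table all 37877 intensities of each array equalled the mean median signal of the transcript's spots within a relative tolerance of 0.0001.

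Levels were log2 of the deposited processed signal minus the array's 75th percentile, which lay between 133.6 and 360. Spots of 1 probe were averaged. A probe entered a test if every array of 1 or more of the groups compared read it well above background. Tests used limma 3.58.1 (lmFit, eBayes; R 4.3.3) with Benjamini-Hochberg adjustment over all probes tested. Strain comparisons used the arrays of 1 tissue, and the others all groups. Of 55681 probes 27656 were named by RefSeq accession and 28025 kept the file's name. The fits were tested on simulated data.

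Members, gene lists and tests were chosen with earlier results of these data known. Named list genes are the 3 with the largest difference among those passing in each list; 1 gene this rule names is not reported here. Same replicate numbers were not treated as pairs: correlations of their deviations ran from -0.25 to 0.47. Alternatives were the normalization, background correction, filter, probe choice, deposited table, slide block, replicate block, shared spread, array 011 and each array left out.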

Additional observations from a re-analysis of the deposited data

Results flagged for a closer look

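In B6 muscle the Myh8 probe A_55_P2120161 read 5.69 on the omitted array 011, where the nearest of the other 3 arrays read 6.69. That gap was 0.840 of the group's whole range, above the 0.829 that Dixon's test sets for 4 samples. Of 42 groups looked at this was the only such sample, and chance gives about 1 in 20. The same array had the summed adipocyte level of 1285 given in the report.

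The strain difference, NZO minus B6, was not the same in BAT as in quad. The difference between these differences was -9.16 for Myh4, -8.54 for Myh8 A_51_P143296, -7.52 for Myh1, -5.65 for Myh2 and -5.58 for Myh8 A_55_P2120161. It was -2.42 for Myh3 A_55_P2083406 and -1.38 for Myh3 A_55_P2066440, which had no BAT array well above background. Each passed an adjusted p under 0.05 in limma, and the muscle list moved with them in BAT.

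The strain difference was also not the same in BAT as in gWAT, by -6.90 for Myh4, -6.79 for Myh8 A_51_P143296, -5.36 for Myh8 A_55_P2120161, -5.09 for Myh1 and -4.66 for Myh2. Myh8 A_55_P2120161 entered that comparison through B6 BAT alone, and Myh1 through the B6 fats alone. In quad against gWAT the Myh3 probe A_55_P2066440 differed by 1.21, with no gWAT array well above background.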

How the results depend on the processing

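Counts are of member probes passing. The fixed slide block was fitted over all 23 arrays, so for a strain difference within a tissue it also shares the spread over tissues. In quad (0) they were 1 with the deposited table, 2 with slide as a fixed block, 2 with 1 spread over all arrays, 1 with array 011 included and 0 to 2 with an array left out. In BAT (5) the replicate block left 2 and leaving out an array 5 to 6. In gWAT (3) quantile normalization, normexp, the deposited table, the fixed slide block and no filter each gave 1, and leaving out an array 1 to 5. Without the filter BAT minus gWAT in B6 gave 11. In NZO it gave 0 with median centring, quantile normalization or the fixed slide block, 2 with normexp or no filter, and 0 to 1 with an array left out. The strain difference in quad minus that in gWAT gave 0 with 1 probe a gene, the fixed slide block or the replicate block, 3 with a random slide block, 2 with array 011 and 1 to 2 with an array left out. Relative to the muscle genes of all fibre types quad gave 2 and BAT 6. That quad count was 0 with no filter, 0 to 2 with an array left out and 1 with fast fibre genes as the reference, and the BAT count was 11 with no filter. The causes were not tested.

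Directions turned in quad for Myh8 A_51_P143296 (0.30) and Myh4 (0.00051) with the fixed slide block, though on slide 4 alone they were -0.051 and -0.30, for Myh6 (0.12) and Myh2 (0.10) with array 011, and in BAT for Myh6 with the deposited table (-0.039). With an array left out, Myh6 in quad ran from -0.41 to 0.039, Myh7 from -0.50 to 0.90, Myh2 from -0.66 to 0.017 and Myh7b from -0.14 to 0.82. Relative to the muscle genes these ranges were -0.30 to 0.027, -0.46 to 0.97, -0.63 to 0.044 and -0.11 to 0.90. In gWAT Myh7 was 0.24 with median centring, 0.22 with quantile normalization, 0.054 with normexp, 0.056 with the deposited table, 1.01 with the fixed and 0.016 with the random slide block, and -0.20 to 0.25 with an array left out.

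The replicate block changed no call count in the other tissue comparisons by over 1.5 times. No replicate block could be fitted for the strain in quad or gWAT because the strains share 1 number there. For the strain in BAT the block joins arrays of different strains, so it does not pair animals. Over all probes, calls in quad fell from 3190 to 1928 with median centring, 1894 with no filter, 1677 with array 011 and 1485 without B6 array 010, and in BAT from 4564 to 803 with the replicate block. In gWAT median centring moved the share of higher calls from 46.2% to 67.8%. Signals near background limit Myh1 and Myh2 in NZO fat.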

Other observations

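The omitted B6 muscle array 011, which belongs in no comparison here, read lower than the other 3 B6 muscle arrays for Myh4 (9.83), Myh1 (7.87) and Myh2 (6.68) and lay between them for Myh7 (3.62). Minus its own mean of the 13 muscle genes, Myh4 was 3.20 on that array against 2.95 to 3.02 on the others, and Myh1 was 1.24 against 1.21 to 1.52.

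Other class II myosins, chosen as a list of 6 non-sarcomeric or rarer chains, also differed between the strains in fat. In gWAT 2 of 5 tested were higher and 2 lower, where 14.9% of all probes were higher and 17.4% lower. Myh15 was 3.82 higher in NZO (SE 0.39, adjusted p = 0.000256), while the smooth muscle chain Myh11 was lower by -1.42 (SE 0.34, adjusted p = 0.0148) and the non-muscle chain Myh10 by -0.88 (SE 0.12, adjusted p = 0.00121). The B6 mean of Myh15 was -6.14. Of the 6 chains 5 were well above background on each NZO gWAT array and 4 on each B6 gWAT array. Whether the size for Myh15 rests on B6 readings at the background was not tested. Myh10 was lower in NZO BAT as well, by -0.83 (SE 0.11, adjusted p = 0.00123), and none of 5 tested passed in quad.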
